A study of Mus musculus with 12 samples.

Results

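The translation initiation and elongation factors were taken as all gene symbols of the raw count table that begin with Eif or Eef followed by a digit, leaving out Eif2s3x, Eif2s3y, the Eif2ak kinases and symbols with -ps. This rule by name found 63 of 55418 symbols and used no measured value. The counts came from 12 single cells picked by their GFP fluorescence from uninjured Achilles tendons of untreated mice on a C57BL/6 background after collagenase digestion. Of these, 6 were Tnmd-/- ScxGFP+ and 6 were Tnmd WT ScxGFP+, so both groups carried the ScxGFP reporter, which marks cells that express the tendon transcription factor Scx. The knockout of Tnmd, a membrane glycoprotein gene of tendons, was constitutive and lies on the X chromosome, and the methods place males as well as homozygous and heterozygous females in the WT group. No age is given in the labels. The methods state 2 tendons, but no label ties a cell to an animal. Each genotype was therefore taken as 1 sample, no replicate check of a genotype exists, no test between the genotypes was made, and differences are set against the range over the 6 cells. The RNA was amplified by Smart-Seq2, a method that covers full-length transcripts and has no molecule tags.

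Protein synthesis starts when initiation factors place the small ribosomal subunit with the initiator tRNA on the start codon of an mRNA. Elongation factors then bring each aminoacyl-tRNA to the ribosome and move the ribosome along. Tendon cells make large amounts of secreted collagen, and the factors below serve all mRNAs of a cell.

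Library totals ran from 892713 to 10333351 counts for Tnmd-/- and from 4516036 to 13613080 counts for WT. Tnmd-/- cells 3 and 7 stood apart. Cell 7 was the shallowest, and mitochondrially encoded genes took 51.8% of the counts of cell 3 against 1.75% to 7.30% in the other 11 cells. The annotation bar of the study's heat map was read by eye. It marks Tnmd-/- cells 9, 10 and 20 and WT cells 4, 5 and 10 as less degraded. The rest are marked as more degraded, and ratios of the main genes are also given by level. The less degraded cells were also the deepest, with 6742665 to 13613080 counts, against 892713 to 5991316 in the more degraded ones. Level and depth can therefore not be told apart. Of 40 named genes with a ratio, 20 had opposite signs in the less and the more degraded cells. Among the more degraded Tnmd-/- cells, cell 1 held 150335 counts of the members, cell 3 held 3538 and cell 7 held 5352. At that level the summed Tnmd-/- value, and that of many single members, thus rests mainly on cell 1. Tnmd itself had 8 Tnmd-/- and 10185 WT counts. Nearly all of the latter lay in WT cell 14 and 4 WT cells had 0, so Tnmd does not check the labels cell by cell. Scx was at 0 in 5 of 6 Tnmd-/- and 2 of 6 WT cells. Tendon fibroblast markers (12 genes, all detected) summed to 1818 to 87942 CPM (counts of a gene per 1e+06 counts of the cell) over the Tnmd-/- cells and to 32710 to 177981 CPM over the WT cells. The sum hides uneven genes. Col1a1 was at 2221 CPM in Tnmd-/- cell 7, at most at 1.32 CPM in the other Tnmd-/- cells and at 0 to 222 CPM in WT. Col1a2 ran from 0.970 to 3279 CPM in Tnmd-/- and from 2.28 to 798 CPM in WT. Of the marker lists for other cells, cartilage (2 of 5 genes with at least 20 counts) summed to 711 CPM over the pooled Tnmd-/- cells against 65.2 CPM for WT, with 3 genes at 0. The excess lay in Tnmd-/- cells 9 and 10, at 1330 and 1084 CPM, as the other Tnmd-/- cells held at most 8.66 CPM and the WT cells 1.60 to 253 CPM. Endothelial markers (3 of 5 at 0) summed to 4.65 and 0.0561 CPM, immune markers (4 of 5 at 0) to 0.342 and 0 CPM, and skeletal muscle markers (4 of 5 at 0) to 0.256 and 0.0187 CPM.

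Several factors exist as closely related gene pairs, and their coding sequences show how far reads can tell them apart. The first 90 coding bases of Eef1a1 and Eef1a2, the paired genes for the elongation factor that delivers aminoacyl-tRNA, are shown because they differ at 15 positions, set in capitals (GENCODE M21, GRCm38).
Eef1a1: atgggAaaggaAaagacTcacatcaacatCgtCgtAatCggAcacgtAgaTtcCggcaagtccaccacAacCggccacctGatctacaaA
Eef1a2: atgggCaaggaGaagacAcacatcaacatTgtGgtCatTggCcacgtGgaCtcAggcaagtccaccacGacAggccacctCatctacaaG
Over 1384 aligned coding bases the pair was 80.6% identical, with no identical run longer than 23 bases. A matching stretch of the RNA helicase genes Eif4a1 (coding bases 37 to 126) and Eif4a2 (43 to 132) is shown for the same reason, with 18 differing bases in capitals.
Eif4a1: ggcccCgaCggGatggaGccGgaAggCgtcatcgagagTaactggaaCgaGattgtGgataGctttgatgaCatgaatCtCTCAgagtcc
Eif4a2: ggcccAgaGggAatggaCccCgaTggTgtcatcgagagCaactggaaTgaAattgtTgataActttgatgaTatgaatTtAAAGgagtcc
This pair was 78.2% identical, with a longest identical run of 20 bases. Reads of the paired 150-base kind used in the study cover more than 1 difference in either pair. Eif3j1 and Eif3j2 are the exception, since their 783 aligned coding bases were 100% identical. A read pair that lies wholly within that stretch holds no differing base, so the 2449 counts of Eif3j1 and 31 of Eif3j2 are uncertain.

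All members together took 26440 CPM of the pooled Tnmd-/- counts (exact 95% Poisson interval 26387 to 26494) and 19739 CPM of the pooled WT counts (19702 to 19777). These intervals cover counting error only, as amplified reads that carry no molecular tag are not separate molecules, and the spread between cells was far larger. In the Tnmd-/- cells the sum was 28309 CPM in cell 1, 2351 in cell 3, 5995 in cell 7, 24825 in cell 9, 27644 in cell 10 and 33688 in cell 20. In the WT cells it was 18284 CPM in cell 1, 28051 in cell 2, 23880 in cell 4, 20807 in cell 5, 12363 in cell 10 and 20745 in cell 14. Tnmd-/- cells 3 and 7 lay below every WT cell, cells 9 and 10 lay within the WT range, and cells 1 and 20 lay above it. The pooled log2 ratio of the sums, Tnmd-/- over WT with 1 CPM added to both, was 0.42. It was 0.58 for the less degraded set of cells, -0.10 for the more degraded set and -0.015 when every cell had equal weight, so its sign was not the same under all weights. Without cells 3 and 7, an alternative chosen after the data were seen, it was 0.51. With mitochondrial genes taken out of the total, cell 3 held 4882 CPM and was still the lowest.

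**Figure D1:**
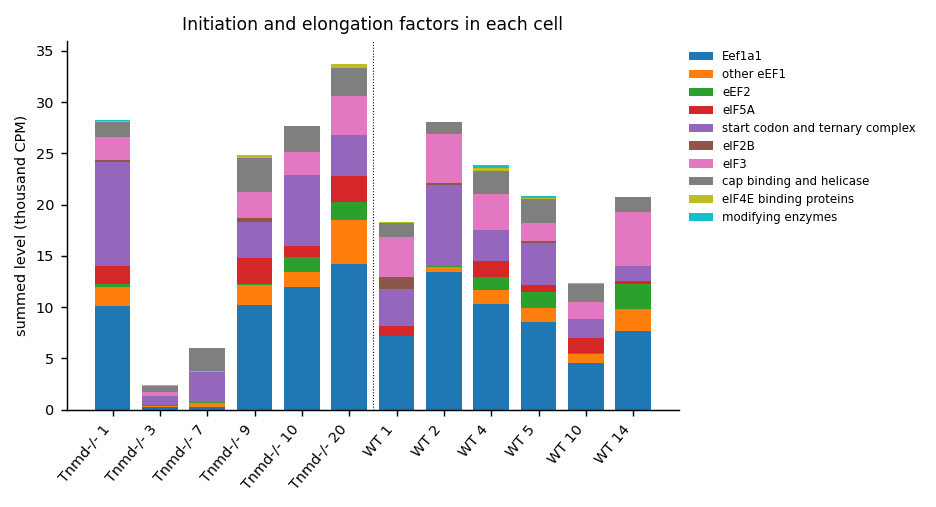
Summed level of the 63 initiation and elongation factors in each of the 12 cells, in units of 1000 CPM, stacked by class, with Eef1a1 on its own at the bottom. Tnmd-/- cells 3 and 7 reach 2351 and 5995 CPM and the other 10 cells 12363 to 33688 CPM.

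The same cells stood apart in the cytosolic ribosomal protein genes, whose sum was 13506 CPM in Tnmd-/- cell 3 and 9690 CPM in cell 7 against 39617 to 101291 CPM in the other 10 cells. The proteasome subunit genes did the same, with 818 CPM in cell 3 and 1690 CPM in cell 7 against 4235 to 20216 CPM in the other 10 cells. The low sums were thus not particular to genes of translation. Pooled, the ribosomal proteins were at 71008 and 54323 CPM (log2 ratio 0.39), and the proteasome subunits at 8634 and 10219 CPM (log2 ratio -0.24). The part of depth, mitochondrial share and degradation in these low sums was not tested.

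Detection was broad. Between 35 and 45 of the 63 members had at least 1 count in a cell, 40 in the median Tnmd-/- cell (63.5%, exact Clopper-Pearson interval 50.4% to 75.3%) and 41 in the median WT cell (65.1%, 52.0% to 76.7%). These intervals take the 63 members as independent draws and do not measure the spread between cells. That spread was 35 to 43 members in Tnmd-/- and 36 to 45 in WT. Thinned to the 892713 counts of the shallowest cell, the medians were 36 and 35.5. Of the 63, 54 had at least 20 counts over the 12 cells, which was the minimum for a ratio. Eif2b5 had 5 counts, all in Tnmd-/- cell 3. The remaining 8 had no count in any cell: Eef1a2, Eef1akmt3, Eef2kmt, Eif2c5, Eif4e1b, Eif4e3, Eif4ebp2 and Eif4ebp3. For counting error alone this allows a level of up to 0.0339 CPM over all cells (3 counts of the total). That limit takes counts as separate molecules, which amplified reads are not, so the true limit is not known.

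Of the 54 members with a ratio, 20 (37.0%) had a count in all 12 cells, against 7.89% of the 9768 genes with at least 20 counts. Much of this gap goes with abundance, as the members had a median of 11157 counts and all genes 1573. Among genes with at least 10000 counts, 18 of 28 members (64.3%) and 653 of 1286 other genes (50.8%) were seen in all 12 cells. Between 1000 and 10000 counts it was 2 of 20 members (10.0%) against 1.58% of 4380 genes, and below 1000 counts 0 of 6 members against 0.716% of 4048 genes. The 2 members in the middle class were Eif3b and Eif4g1. At a stricter 10 counts in every cell 9 members remained, and after thinning 15 had a count in all cells.

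**Figure D2:**
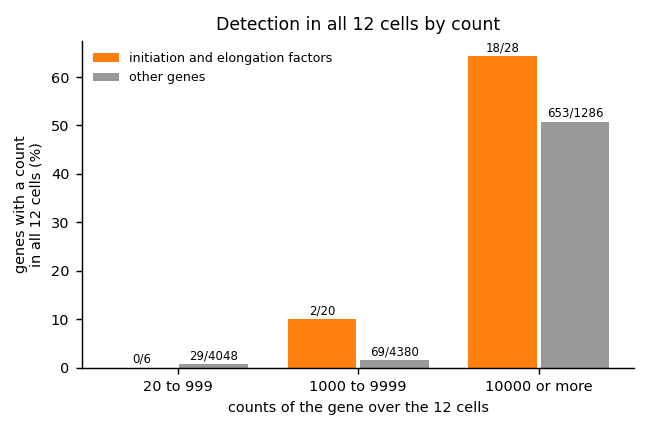
Share of genes with a count in all 12 cells (percent), for initiation and elongation factors and for the other genes, in 3 classes of the gene's counts over the 12 cells; the fraction over each bar gives the genes counted. The share rises with counts in both sets, to 64.3% of the members and 50.8% of the other genes.

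The run of C and T letters at the start of mRNAs, called the TOP motif, marks transcripts of the translation machinery, so the start sites of the members were searched. In the RefSeq promoter table (GRCm38.p6) 47 members had a window from 15 bases before to 15 bases after an annotated start. The search was for a C followed by at least 5 further letters that were each C or T, on the transcript strand only and at any place in the window. It matched 13 of the 47 members (27.7%) and 25.5% of 27025 genes. As it accepted letters before the start and at any place, it cannot tell whether the members carry the motif more often than other genes. The windows of Eef1a1 (chr9:78481710-78481739, minus strand) and Eif3f (chr7:108934400-108934429, plus strand) hold the run, in capitals, and those of Eef2 (chr10:81176616-81176645, plus strand) and Eif4a1 (chr11:69672409-69672438, minus strand) do not.
Eef1a1: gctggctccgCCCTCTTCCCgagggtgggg
Eif3f: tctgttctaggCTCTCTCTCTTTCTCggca
Eef2: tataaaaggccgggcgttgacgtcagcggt
Eif4a1: acaaagtaacgtcacgtcgagttgcagagc
The 10 members with the run and a ratio were seen in a median of 9 cells, and the 32 without it in a median of 11. A match is a match of letters and no match says only that these letters are not in this window. Neither tells whether an mRNA begins with the motif.

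Per length, in counts per kilobase of exon per 1e+06 counts pooled over all 12 cells, the most abundant member was Eef1a1 at 3691. It was followed by Eif5a at 561, Eif1 at 415, Eef1g at 329, Eef2 at 262, Eif3h at 213, Eif3g at 170, Eif1a at 161, Eif5 at 148 and Eef1b2 at 140. All 10 were also the leading members of the pooled Tnmd-/- cells and 8 of them of the WT cells. In WT, Eif3k (94.7) and Eif3c (88.0) took the places of Eef1b2 (87.2) and Eif5 (74.2), and Eef2 (269) stood above Eif1 (221). Eef1a1 held the highest level per length of all members in 10 of the 12 cells. In Tnmd-/- cell 3 Eif1a came before it, and in Tnmd-/- cell 7 it ranked 3 and Eif1 came first. Length here means all annotated exon bases of a gene, which can far exceed 1 transcript. It was 6719 bases for Eif3e and 2698 for Eif3k. Their transcripts with the longest coding sequence have 1506 and 774 bases. The order of members thus depends in part on the annotation.

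**Figure D3:**
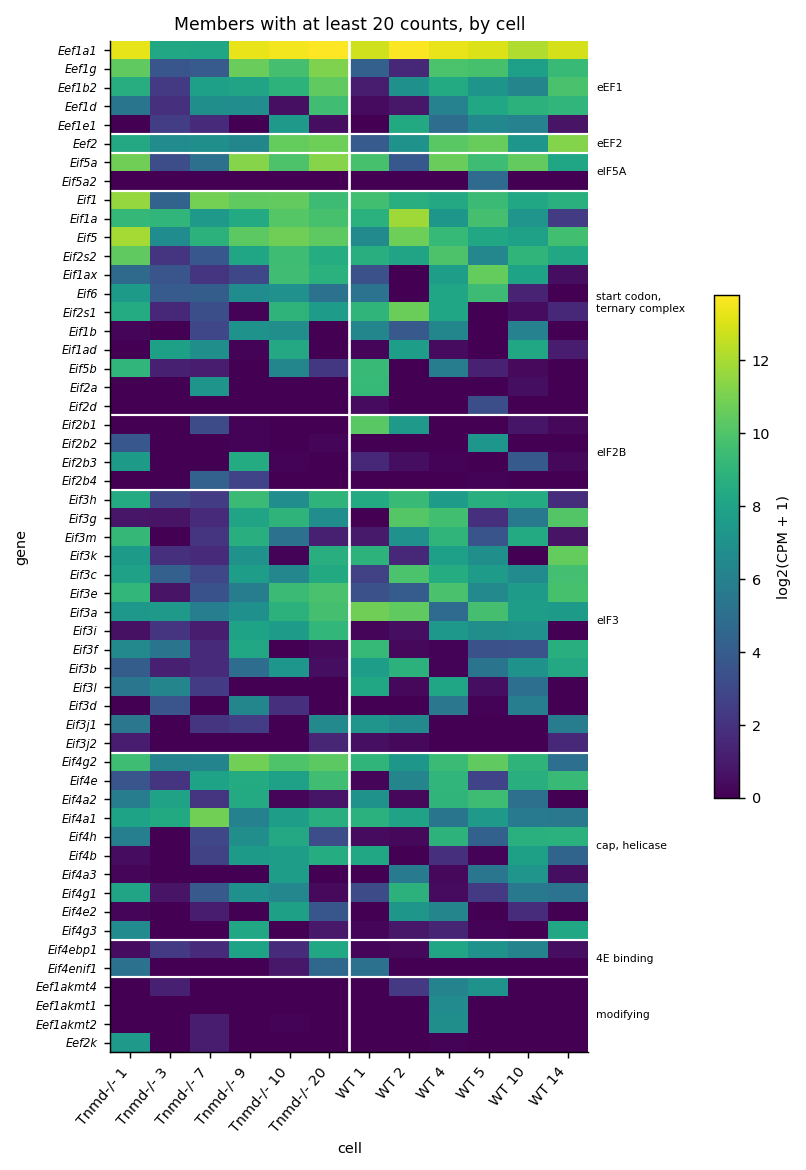
Level of the 54 members with at least 20 counts in each cell, as log2(CPM + 1), with genes in rows by class and by falling level per length within a class, and cells in columns, the Tnmd-/- cells left and the WT cells right of the white line. Eef1a1 is bright in 10 cells and dimmer in Tnmd-/- cells 3 and 7, and most rows below the first few of a class hold dark cells in both genotypes.

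Across the 54 members the pooled log2 ratio had a median of 0.17, against 0.06 for all genes. With a 2-fold limit, 11 members (20.4%) were higher in Tnmd-/-, where 35.5% of all genes were, and 12 (22.2%) were lower, where 34.9% were. The other 31 lay within 2-fold. The median size of the ratio, without its sign, was 0.84 for the members and 2.04 for all genes, again beside the higher counts of the members. The lower shares of the members did not hold at each degradation level. Among less degraded cells 31.5% of the members and 28.3% of all genes were higher, and 16.7% and 31.2% lower. Among more degraded cells 24.1% and 29.6% were higher, and 38.9% and 25.6% lower. The ranges of the 6 Tnmd-/- and the 6 WT cells overlapped for every one of the 54 members, and did not overlap for 0.0205% of all genes in the higher and 0.0205% in the lower direction. The members' count of 0 is near the share of all genes and says nothing particular to them.

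A stricter count, chosen after the data were seen, asked for more than 2-fold in 1 direction in the pool, with each cell left out in turn and within both degradation levels. It held for 4 members higher in Tnmd-/- (7.41%, against 5.16% of all genes), namely Eif1, Eif5, Eef1g and Eif2b3. It held for 1 member lower in Tnmd-/- (1.85%, against 5.63%), Eif3l. Both shares rest on few members and lie near those of all genes. Cells were left out of the full pool only, so within a level a single cell can meet the rule. More degraded Tnmd-/- counts of Eef1g were 7386 (cell 1), 18 (cell 3) and 13 (cell 7). Eif2b3 drew all 962 from cell 1 there, and 3637 from cell 9 among the less degraded, with 1 from cell 10. Eif1 differed, as cell 7 added 1727 counts to the 16816 of cell 1. Passing the rule thus does not show that a ratio holds over several cells of each level.

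**Figure D4:**
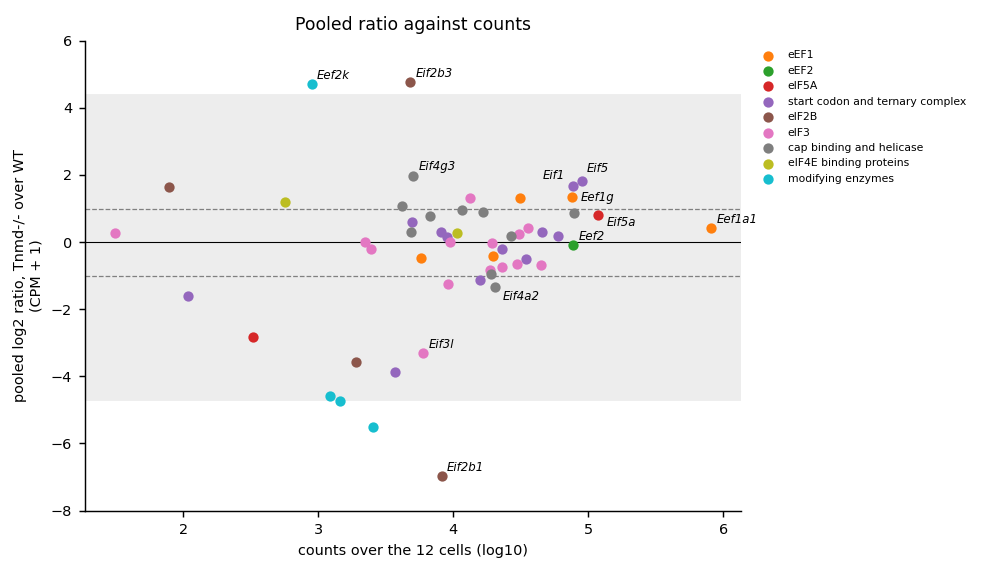
Pooled log2 ratio of CPM + 1, Tnmd-/- over WT, of each member with at least 20 counts against its counts over the 12 cells on a log10 scale, coloured by class; dashed lines mark 2-fold and the grey band runs from the lowest to the highest decile of all genes, -4.69 to 4.4. The 28 members with at least 10000 counts lie between -1.34 and 1.81, 7 of them past 2-fold, and the 10 ratios beyond 2 on the log2 scale all belong to members with fewer counts.

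The factors of start codon choice and of the ternary complex, which carries the initiator tRNA on eIF2, summed to 5503 CPM in Tnmd-/- and 3320 CPM in WT (log2 ratio 0.73). Of 12 genes 2 were over 2-fold higher, 3 lower and 7 within, beside 35.5% of all genes higher and 34.9% lower. The cells ranged from 928 to 10127 CPM in Tnmd-/- and from 1528 to 7835 CPM in WT, so the genotypes overlapped.

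Eif5, on chromosome 12 (111538016 to 111546752), encodes the factor that triggers GTP hydrolysis by eIF2 at the start codon. It was at 3902 CPM in Tnmd-/- cell 1, 102 in cell 3, 463 in cell 7, 1286 in cell 9, 1806 in cell 10 and 1328 in cell 20. In the WT cells it was at 93.0 CPM in cell 1, 1716 in cell 2, 613 in cell 4, 305 in cell 5, 241 in cell 10 and 797 in cell 14. Thus 4 Tnmd-/- cells lay above 5 of the 6 WT cells, while WT cell 2 lay above 4 Tnmd-/- cells. The pooled log2 ratio was 1.81. Its counting interval of 1.79 to 1.83, like those below, belongs to the ratio without added CPM. By degradation level the ratio was 1.96 (less) and 1.77 (more), and it ran from 1.46 to 2.20 when single cells were left out. The ratio of the more degraded level rests mainly on Tnmd-/- cell 1, with 20719 counts of Eif5 against 154 in cell 3 and 413 in cell 7.

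Eif1, on chromosome 11 (100319885 to 100322096), encodes a small factor that guards against wrong start codons. It was at 3167 CPM in Tnmd-/- cell 1, 19.9 in cell 3, 1935 in cell 7, 1386 in cell 9, 1411 in cell 10 and 709 in cell 20. WT cells held 775 CPM in cell 1, 418 in cell 2, 323 in cell 4, 681 in cell 5, 294 in cell 10 and 426 in cell 14. Apart from cells 3 and 20, every Tnmd-/- cell lay above all WT cells, and cell 3 lay far below them. The pooled log2 ratio was 1.68 (1.66 to 1.70), with 1.53 (less degraded) and 2.10 (more degraded) by level and 1.36 to 1.89 with single cells left out. Genes that match Eif1 at 95% identity or more over at least 150 bases number 13. Their 1246 counts, 1172 of them from Emd, equal 1.62% of its own. As only uniquely mapping reads were counted, this share does not show how many reads of Eif1 were dropped.

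The paralog Eif1b was lower in counts, with 70.5 CPM in Tnmd-/- and 46.7 CPM in WT, and was seen in 4 cells of each genotype. Its log2 ratio was 0.59 in the pool and by level 0.81 (less degraded) and -4.27 (more degraded). Eif1a and Eif1ax both encode eIF1A, which helps the small subunit scan the mRNA. Eif1a had a count in every cell, from 178 to 1162 CPM in Tnmd-/- and from 4.21 to 3572 CPM in WT, and its pooled log2 ratio of 0.19 became 1.08 without WT cell 2, -0.23 without Tnmd-/- cell 10, -0.11 without WT cell 4 and -0.15 without WT cell 10. By level it was past 2-fold in opposite directions, at 1.09 (less degraded) and -1.32 (more degraded). Eif1ax, on the X chromosome, was at 312 CPM in Tnmd-/- and 443 CPM in WT, with 70.4% of its Tnmd-/- counts in cell 10 and 74.1% of its WT counts in cell 5. Its ratio of -0.50 was -1.75 without the former and 1.07 without the latter of these cells, and by level -0.65 (less degraded) and 2.15 (more degraded).

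The eIF2 subunit gene Eif2s2 was seen in all 12 cells, at 581 CPM in Tnmd-/- and 473 CPM in WT (log2 ratio 0.30). Without Tnmd-/- cell 1 the ratio was -0.11 and without WT cell 5 -0.013, and by level it was -0.16 (less degraded) and 1.52 (more degraded). Eif6, whose product keeps the large ribosomal subunit from joining too early, showed how 1 cell can set a pooled value. It was lower in the Tnmd-/- pool, with 102 CPM against 226 CPM and a log2 ratio of -1.14 (-1.20 to -1.09). Yet the median Tnmd-/- cell held 69.3 CPM (14.6 to 182) and the median WT cell 19 CPM (0 to 694). WT cell 5 gave 69.0% of the WT counts, and the other cells alone gave a ratio of 0.17. It was -0.93 without Tnmd-/- cell 20, and by level -1.71 (less degraded) and 3.10 (more degraded).

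The eIF2B genes encode the exchange factor that reloads eIF2 with GTP. They were sparse, at 136 CPM in Tnmd-/- and 192 CPM in WT in sum, and no cell had counts of all 5 subunits. A cell showed 1 to 4 of them in Tnmd-/- and 1 or 2 in WT. Eif2b1, on chromosome 5 (124570213 to 124579131), had 8 counts in Tnmd-/-, 7 of them in cell 7, and 8200 in WT. WT cell 1 held 1224 CPM and WT cell 2 178 CPM, and the other 4 WT cells at most 0.735 CPM. The log2 ratio was -6.97 with added CPM and -9.39 (-10.61 to -8.42) without. WT cell 1 gave 89.4% of the WT counts, without it the former was -3.98, and among less degraded cells alone it was -0.28.

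Eif2b3 leaned the other way, with 4600 counts in Tnmd-/- and 206 in WT (log2 ratio 4.77). Of the Tnmd-/- counts 79.1% lay in cell 9, and with cell 1 at 181 CPM and cell 9 at 352 CPM the other 4 Tnmd-/- cells held at most 0.0970 CPM. Each of these subunits was thus high in only a few cells.

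The eIF3 complex, the scaffold that holds the small subunit and the other factors, summed to 2479 CPM in Tnmd-/- and 2944 CPM in WT (log2 ratio -0.25). Of 14 genes 1 was over 2-fold higher, 2 were lower and 11 lay within, beside 35.5% of all genes higher and 34.9% lower. Without the uncertain Eif3j1 and Eif3j2 there were 12 subunits, and a cell showed a count for 10 or 11 of them in Tnmd-/- and for 9 to 12 in WT. At least 10 counts were reached by 1 to 11 subunits per Tnmd-/- cell, the 1 in cell 7, and by 7 to 11 per WT cell. Eif3a, Eif3b, Eif3c, Eif3e and Eif3h had counts in all 12 cells. Of these, Eif3h was at 379 CPM for Tnmd-/- and 321 CPM for WT (log2 ratio 0.24, and -0.30 without Tnmd-/- cell 9) and Eif3e at 478 and 356 CPM (0.42, and 1.32 without WT cell 4). Eif3a was at 367 and 590 CPM (-0.68), with -1.22 without Tnmd-/- cell 20 and -1.05 without WT cell 4. Eif3c was at 185 and 309 CPM (-0.74), with -1.05 without Tnmd-/- cell 20 and -1.04 without WT cell 10. All 4 thus lay within 2-fold in the pool, and for each of them leaving out a cell changed the sign or took the ratio past 2-fold. By level, Eif3a was at 0.28 (less degraded) and -2.97 (more degraded), Eif3c at -0.20 and -1.68, Eif3e at 0.35 and 0.57, and Eif3h at 0.42 and -0.47.

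Levels per length within eIF3 ranged from 213 for Eif3h and 170 for Eif3g to 18.6 for Eif3l and 5.04 for Eif3d. Part of this range follows the annotation. The exon length used was 1612 bases for Eif3h and 4968 for Eif3d, whose transcripts with the longest coding sequence have 1295 and 1899. Of the exon bases of Eif3d, 43.3% are shared with a gene on the opposite strand, and the strand of counting is not given in the sources used here. Eif3g ran from 0.665 to 510 CPM in Tnmd-/- and from 0 to 1153 CPM in WT. Its pooled log2 ratio was -0.67, with -1.49, -1.03 and -1.05 when Tnmd-/- cell 10, WT cell 5 or WT cell 10 was left out, and 0.19 (less degraded) and -8.49 (more degraded) by level.

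Eif3l, on chromosome 15 (79075179 to 79094405), was lower in Tnmd-/-. It was at 41.4 CPM in Tnmd-/- cell 1, 77.8 in cell 3 and 4.48 in cell 7, and at 0 in cells 9, 10 and 20. In WT it was at 302 CPM in cell 1, 0.207 in cell 2, 272 in cell 4, 0.416 in cell 5, 32.2 in cell 10 and 0 in cell 14. Both genotypes overlapped, as only WT cells 1 and 4 lay above every Tnmd-/- cell. The log2 ratio was -3.32, and without added CPM -3.44 (-3.60 to -3.29). By level it was -6.67 (less degraded) and -1.40 (more degraded), and it was -4.40 without Tnmd-/- cell 1 and -2.39 without WT cell 4.

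Eif3b, an RNA-binding subunit of the core, had a log2 ratio of -1.24 (-1.33 to -1.19). The median cell held 8.93 CPM in Tnmd-/- (0.445 to 152) and 166 CPM in WT (0.0802 to 473). Tnmd-/- cell 10 gave 80.1% of its counts there and the ratio without it was -3.01, while it was -0.83 without WT cell 2, -0.94 without Tnmd-/- cell 20 and -0.99 without Tnmd-/- cell 9. By level it was 0.24 (less degraded) and -4.71 (more degraded). The direction thus changed with the degradation level.

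Eif3i was the 1 subunit over 2-fold higher in Tnmd-/-, with a log2 ratio of 1.32 (1.28 to 1.38). Its level was 252 CPM in Tnmd-/- cell 9, 190 in cell 10 and 558 in cell 20 and at most 3.32 CPM in the other 3, and in WT it was 160 CPM in cell 4, 113 in cell 5 and 123 in cell 10 and at most 0.414 CPM in the rest. In both genotypes the cells with Eif3i were the less degraded ones, which were also the deepest, and among them the ratio was 1.2. Without Tnmd-/- cell 20 the pooled ratio was 0.77.

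The cap-binding complex eIF4F consists of the cap binder eIF4E, the scaffold eIF4G and the helicase eIF4A. The genes of this class summed to 2568 CPM in Tnmd-/- and 1921 CPM in WT (log2 ratio 0.42). Of 10 genes 2 were over 2-fold higher, 1 lower and 7 within, beside 35.5% of all genes higher and 34.9% lower. Eif4e, Eif4a1 and Eif4g1 each had a count in all 12 cells, and at least 10 counts of all 3 were reached in 4 cells of each genotype.

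Among the helicase genes, Eif4a1 was seen in every cell, from 65.6 to 1840 CPM in Tnmd-/- and from 39.7 to 454 CPM in WT. Its highest value, in Tnmd-/- cell 7, fell in the cell with a low sum of all members. Its pooled log2 ratio was 0.90, and leaving out Tnmd-/- cells 9 or 10 or WT cells 1, 2 or 5 took it to between 1.0 and 1.38. Eif4a2, on chromosome 16 (23107444 to 23114136), had the opposite sign in the pool, at 120 CPM in Tnmd-/- and 304 CPM in WT and a log2 ratio of -1.34 (-1.40 to -1.30). Tnmd-/- cell 9 held 340 CPM and gave 83.7% of its Tnmd-/- counts, cell 3 held 250 CPM, and WT cells 4 and 5 held 515 and 716 CPM. The ratio was -3.42 without Tnmd-/- cell 9, -0.62 without WT cell 5, -1.0 without WT cell 4, -0.84 without Tnmd-/- cell 10, and 0.79 among more degraded cells alone. Of the exon bases of Eif4a2, 13.3% are shared with Rfc4 on the opposite strand.

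Eif4a3, a helicase of the exon junction complex despite its name, had 99.95% of its Tnmd-/- counts in cell 10, and its ratio of 0.31 was -5.62 without that cell, -0.068 without WT cell 4 and 1.70 without WT cell 10, and -3.84 among more degraded cells alone. Eif4e was seen in all 12 cells, at 324 CPM in Tnmd-/- and 286 CPM in WT (log2 ratio 0.18, but -0.35 without Tnmd-/- cell 20 and -0.18 without WT cell 5). The 2 levels gave 0.35 (less degraded) and -2.40 (more degraded). Its paralog Eif4e2, a cap binder that represses translation, had 96.6% of its Tnmd-/- counts in cell 10, and its ratio of 1.06 was -2.97 without that cell. Leaving out any single WT cell moved it to between 0.67 and 1.81, and it was 0.87 with TMM and 0.79 with DESeq2 scaling. The levels gave 1.72 (less degraded) and -5.31 (more degraded). Eif4e3 had no count.

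The scaffold genes differed in how evenly they were seen. Eif4g2, which encodes a scaffold without the eIF4E binding site, had a count in all 12 cells, from 71.8 to 1886 CPM in Tnmd-/- and from 31.4 to 1354 CPM in WT (log2 ratio 0.86, and 1.38 without WT cell 5). Eif4g1 ran from 0.297 to 270 CPM and from 0.321 to 460 CPM, with a ratio of 0.78 that became 2.37 when WT cell 2 and 1.08 when Tnmd-/- cell 20 was left out. With equal cell weights the ratio of Eif4g1 was -0.19. Eif4g3 was high in Tnmd-/- cells 1 and 9, at 99.4 and 301 CPM, and in WT cell 14, at 298 CPM. Its ratio of 1.98 was -0.24 without Tnmd-/- cell 9 and 6.08 without WT cell 14, and by level 6.19 (less degraded) and -0.36 (more degraded).

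The eIF4E binding proteins hold eIF4E off the scaffold until they are phosphorylated. Of the 3 Eif4ebp genes, Eif4ebp2 and Eif4ebp3 had no count, while Eif4ebp1 had a count in all 12 cells and at least 10 counts in 3 cells of each genotype. Eif4ebp1 was at 253 CPM in Tnmd-/- cell 9 and 312 in cell 20 and at most 3.99 CPM in the other 4, and at 277 CPM in WT cell 4, 130 in cell 5 and 70.8 in cell 10 and at most 0.443 CPM in the rest. All 5 cells with high values were less degraded ones, which were also the deepest. The pooled log2 ratio was 0.27, with -0.37 without Tnmd-/- cell 9, -0.26 without Tnmd-/- cell 20 and 1.12 without WT cell 4. Eif4enif1, whose product carries eIF4E into the nucleus, had 357 Tnmd-/- and 209 WT counts in 4 cells.

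Elongation was led by eEF1, the eEF1A carrier of aminoacyl-tRNA with its exchange factor subunits. The class summed to 12942 CPM in Tnmd-/- and 9224 CPM in WT (log2 ratio 0.49). Of 5 genes 2 were over 2-fold higher and 3 within, beside 35.5% of all genes higher and 34.9% lower.

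Eef1a1, on chromosome 9 (78478449 to 78489151), took 40.8% of the members' pooled counts in Tnmd-/- and 41.3% in WT. It was at 10107 CPM in Tnmd-/- cell 1, 296 in cell 3, 279 in cell 7, 10212 in cell 9, 11965 in cell 10 and 14206 in cell 20. WT cells held 7191 CPM in cell 1, 13461 in cell 2, 10315 in cell 4, 8498 in cell 5, 4549 in cell 10 and 7694 in cell 14. Apart from Tnmd-/- cells 3 and 7 the lowest and highest cell differed by little more than 3-fold. In cells 3 and 7 Eef1a1 was also low relative to the other members, at 12.6% and 4.65% of their counts against 35.7% to 48.0% in the other 10 cells. The pooled log2 ratio was 0.41 (0.40 to 0.41), with 0.63 (less degraded) and -0.40 (more degraded) by level. Leaving out Tnmd-/- cells 3 and 7, it was 0.51. Eef1a2, which takes the place of Eef1a1 in muscle and nerve cells, had no count in any cell. Genes that match Eef1a1 by the limits used for Eif1 number 9, and their 3024 counts equal 0.371% of its own. This share, too, does not show how many reads were dropped as not unique.

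Eef1g, on chromosome 19 (8967041 to 8978479), encodes a structural subunit of the exchange factor. It was at 1391 CPM in Tnmd-/- cell 1, 12 in cell 3, 14.6 in cell 7, 1597 in cell 9, 838 in cell 10 and 2198 in cell 20. WT cells held 17.5 CPM in cell 1, 1.87 in cell 2, 954 in cell 4, 876 in cell 5, 220 in cell 10 and 643 in cell 14. High and low cells occurred in both genotypes, and 3 Tnmd-/- cells lay above every WT cell. The log2 ratio was 1.34 (1.32 to 1.36), with 1.13 (less degraded) and 2.28 (more degraded) by level and 1.08 to 1.74 with single cells left out.

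Eef1b2, the catalytic exchange subunit on chromosome 1 (63176825 to 63180486), had a log2 ratio of 1.33 (1.30 to 1.36). The median cell held 326 CPM in Tnmd-/- (3.99 to 1400) and 128 CPM in WT (1.17 to 917). Tnmd-/- cell 20 gave 48.4% of the Tnmd-/- counts, and the ratio was 0.68 when it was left out. By level it was 1.75 (less degraded) and -0.074 (more degraded). Eef1d, another exchange subunit, was seen in all 12 cells with a ratio of -0.43, which was -2.26 without Tnmd-/- cell 20, 0.072 without Tnmd-/- cell 10 and 0.10 without WT cell 10. All 4 of Eef1a1, Eef1b2, Eef1d and Eef1g had a count in every cell, and at least 10 counts of all 4 were found in 4 cells of each genotype.

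**Figure D5:**
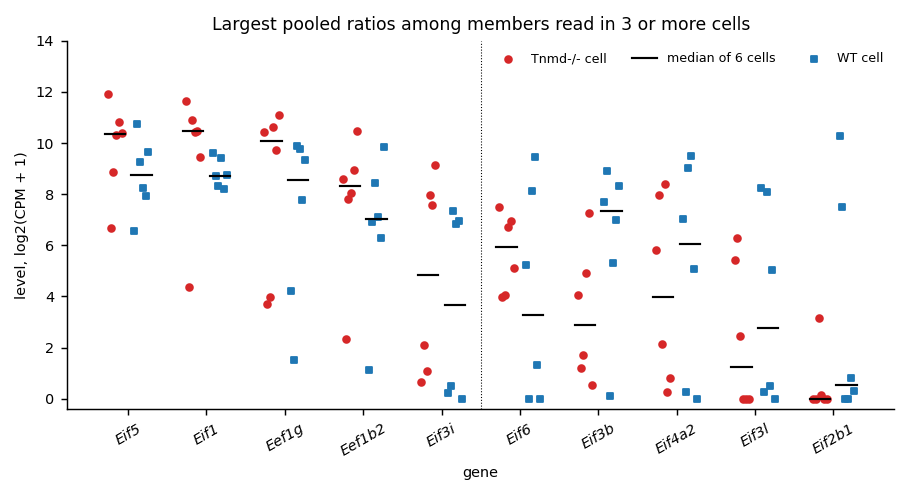
Level in each cell, as log2(CPM + 1), of 10 members, the 5 most extreme pooled ratios per direction once members below 50 CPM in their higher genotype, or with fewer than 3 cells of it at 10 counts, are set aside, higher in Tnmd-/- left and lower right of the dotted line; red circles are Tnmd-/- cells, blue squares WT cells and black bars medians of 6 cells. The points of both genotypes overlap for each gene, and for Eif6 the Tnmd-/- median (69.3 CPM) lies above that of WT (19 CPM) although its pooled ratio is -1.14.

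Eef2, the translocase that moves the ribosome by a codon, had counts in all 12 cells and nearly equal pooled levels, 841 CPM in Tnmd-/- and 893 CPM in WT. Its log2 ratio of -0.09 (-0.11 to -0.07) hid a wide spread. The Tnmd-/- cells ran from 78.9 to 1730 CPM with a median of 215, and the WT cells from 14.7 to 2432 CPM with a median of 689. With single cells left out the ratio ran from -0.62 (without Tnmd-/- cell 10) to 0.38 (without Tnmd-/- cell 9), and it was also above 0 without Tnmd-/- cell 1 (0.066) or WT cell 4 (0.086), 5 (0.26) or 14 (0.16). By level it was 0.093 (less degraded) and -1.61 (more degraded).

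Eif5a encodes a factor that frees ribosomes stalled on difficult peptide bonds and carries the modified amino acid hypusine. It was at 1801 CPM in Tnmd-/- and 1026 CPM in WT (log2 ratio 0.81). Low values fell in Tnmd-/- cells 3 and 7, at 8.64 and 32.5 CPM, and in WT cell 2, at 13.1 CPM, while the other cells held 284 to 2545 CPM. Leaving out WT cell 4, WT cell 10 or Tnmd-/- cell 10 took the ratio just over 1, to 1.03 to 1.07. Its paralog Eif5a2 had 329 counts, all in WT cell 5. Taking 3 counts as the limit of a 0, it was at least 6.17 lower in the pooled Tnmd-/- cells on the log2 scale. This value covers counting error only and rests on WT cell 5 alone. The enzymes that make hypusine, Dhps and Dohh, were read almost wholly in single cells. Of the Dhps counts, 1578 of 1611 for Tnmd-/- lay in cell 10 and 1390 of 1394 for WT in cell 5. Of the Dohh counts, 519 of 542 for Tnmd-/- lay in cell 3 and all 66 for WT in cell 2.

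The modifying enzymes were read in few cells. Of the 4 genes with a ratio, Eef1akmt1, Eef1akmt2 and Eef2k reached 10 counts in a single cell each. Eef2k, the kinase that inhibits eEF2, had 892 of its 894 counts in Tnmd-/- cell 1. The lysine methyltransferase genes Eef1akmt1 and Eef1akmt2 had their counts in WT cell 4, apart from 2 counts of Eef1akmt2. Of all members, 6 reached 10 counts in 1 cell only, the others being Eif2d, Eif3j2 and Eif5a2. Ratios of such genes compare single cells.

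Other genes of translation and its control were taken from a list of 44 symbols, of which 43 were in the table and 34 had at least 20 counts. Of these, 13 were over 2-fold higher in Tnmd-/-, 11 lower and 10 within, beside 35.5% of all genes higher and 34.9% lower, and their median log2 ratio was 0.58. In termination and recycling 1 of 5 genes was higher and 4 were lower. Among the cap, poly(A) and small subunit helpers 4 of 12 were higher and 2 lower, and among the signalling genes 5 of 8 were higher and 2 lower.

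Etf1 and Gspt1 encode the release factors that end translation, and both were lower in the Tnmd-/- pool. Etf1 was at 46.8 CPM against 274 CPM (log2 ratio -2.53), with 210 CPM in Tnmd-/- cell 1 and at most 50.5 CPM in the other 5, and with 132 to 961 CPM in 5 WT cells and 0 in WT cell 5. Its ratio was -2.94 (less degraded) and -1.98 (more degraded) by level, and -3.88 without Tnmd-/- cell 1. Gspt1 was at 18.8 against 177 CPM (-3.18), and without Tnmd-/- cell 1 its ratio was -6.74 and without WT cell 1 -2.43. Denr, a factor of reinitiation, had 9 counts against 3393 (-5.68, and -4.92 without WT cell 5), the latter all in WT cells 4, 5 and 10. The more degraded WT cells held 0, and within that level the ratio was 0.60.

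Higher in the Tnmd-/- pool was Ppp1r15b, a subunit of the phosphatase that reactivates eIF2, at 220 against 22.3 CPM (log2 ratio 3.24, and 2.00 without Tnmd-/- cell 10 and 7.58 without WT cell 10). Abce1, which splits ribosomes for reuse, was at 315 against 103 CPM (1.61). It lay between 141 and 405 CPM in 4 Tnmd-/- cells and at most at 1.12 CPM in cells 3 and 7, and in WT only cells 4 and 10 held more than 1 CPM, with 233 and 188 CPM. Its ratio was 2.31 without WT cell 4. Rps6kb1, a kinase that acts on initiation, was at 198 against 69.4 CPM (1.5), and its ratio was 0.81 without Tnmd-/- cell 1 and 0.97 without Tnmd-/- cell 9. Its median cell held 40.1 CPM in Tnmd-/- and 56.7 CPM in WT. By level the ratios were 3.13 (less degraded) and 0.94 (more degraded) for Ppp1r15b, 1.17 and 7.72 for Abce1 and 0.66 and 3.47 for Rps6kb1. The stress-linked Atf4 and Ppp1r15a had counts in every cell, at 1692 and 1794 CPM in Tnmd-/- and 1216 and 884 CPM in WT. Atf4 ran from 37.0 to 2509 CPM in Tnmd-/- (median 1456) and from 1.33 to 1779 CPM in WT (median 1289). Ppp1r15a ran from 6.65 to 2546 CPM (median 1333) and from 81.6 to 2071.5 CPM (median 645), so the genotypes overlapped for both genes.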

How the data were processed

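RNA of 12 single cells from mouse Achilles tendon, 6 Tnmd-/- and 6 WT, was amplified by Smart-Seq2 and sequenced. The authors aligned reads with STAR 2.5.1b to GRCm38 and counted reads mapping uniquely to exons with featureCounts of Subread 2.0.0, and deposited raw counts per gene symbol. Whether counting used strand is not given in the sources used here. Counts of a genotype's cells were summed, divided by the summed total (CPM) and compared as a log2 ratio with 1 CPM added, over genes with at least 20 counts. The members and lists were chosen with earlier results of these data known. Named are the 10 members highest per length, the 5 largest ratios in each direction (50 CPM or more, and 3 cells at 10 counts, for whichever genotype was higher), paralogs, members with a count in all cells, and the 3 largest ratios of the other translation genes in each direction by the same limits; others named beside counts were picked after their values were seen. Total counts were 892713 to 13613080 per cell. Intervals are exact Poisson or Clopper-Pearson intervals at 95%. Degradation levels were read by eye from the annotation bar of the study's heat map. Alternatives were equal cell weights, edgeR 4.0.16 TMM and DESeq2 1.42.0 size factors, totals without mitochondrial genes, each degradation level, each cell left out, 5 CPM added, other count minimums and thinning. All 63 members matched GENCODE M21 with equal exon length, and coding sequences were compared with Biopython 1.88 and BLAST+ 2.17.0. Python 3.11.15 and R 4.3.3 were used.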

Additional observations from a re-analysis of the deposited data

Results flagged for a closer look

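For each genotype the level of the summed members and of each named gene was searched for a cell far from the other 5, on the log2(CPM + 1) scale. Of 82 such sets, 11 (13.4%) held a cell past the limit. Chance gives about 1 in 20 for normally distributed values, which these are not, since sets with many zeros pass by their zeros alone, as Eif5a2 in WT with 5 cells at 0. Tnmd-/- cell 3 lay far below the others for Eif1 (19.9 CPM) and Eef1b2 (3.99 CPM). WT cell 14 lay far below the others for Eif3h (2.44 CPM) and above them for Eif4g3 (298 CPM) and for the uncertain Eif3j2 (1.99 CPM). WT cell 2 was low for Eif5a (13.1 CPM), and WT cell 5 was at 0 CPM for Etf1 and alone in having Eif5a2 (27.4 CPM). High values stood alone for Eif4a3 in Tnmd-/- cell 10 (213 CPM), for Eif2b1 in Tnmd-/- cell 7 (7.84 CPM) and for Ppp1r15b in WT cell 10 (87.1 CPM). The sum of all members held no such cell in either genotype, since cells 3 and 7 were low together.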

How the results depend on the processing

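The summed level had a log2 ratio of 0.42, which was -0.015 with equal cell weights, 0.23 with TMM factors, 0.15 with DESeq2 size factors, 0.46 without mitochondrial genes in the total, 0.58 and -0.10 within the less and more degraded cells, 0.51 without Tnmd-/- cells 3 and 7, and 0.25 to 0.52 with single cells left out. The median ratio of the members (0.17) was -0.18, -0.020, -0.11, 0.21, 0.33, -0.10 and 0.16 under the same settings in the same order, 0.11 with 5 CPM added, 0.078 at 100 counts, 0.18 at 1 count and 0.056 to 0.17 with single cells left out. The median of all genes moved from 0.062 to -0.072 with TMM and to -0.13 with DESeq2 factors. The 11 members over 2-fold higher became 17 within the less degraded cells (31.5%, with 28.3% of all genes) and 9 to 15 with single cells left out. The 12 lower members became 21 with equal weights (38.9%, with 36.4% of all genes), 21 within the more degraded cells (38.9%, with 25.6%) and 10 to 19 with single cells left out, the 19 without Tnmd-/- cell 10 (35.2%, with 37.9%). The gap to the share of all genes thus depended on the cells used. The 20 members seen in all cells were 9 at 10 counts and 20 to 22 with single cells left out. In no setting tried, TMM factors, DESeq2 factors or a cell left out, did the ranges of a member separate (0 to 0 members). Of 40 named ratios, 14 changed sign within the more and 6 within the less degraded cells. Equal cell weights changed the sign of 6, and 16 of the 19 ratios past 2-fold stayed past it. Those of Eef1b2 (0.79), Eif4e2 (0.037) and Eif4g3 (0.41) did not. Ratios over 2-fold changed sign within the more degraded cells for Eef1b2 (-0.074), Eif4a2 (0.79), Eif6 (3.10), Eif4e2 (-5.31), Eif4g3 (-0.36) and Denr (0.60) and within the less degraded cells for Eif3b (0.24). With single cells left out, the ratio of Eif6 ran from -1.56 to 0.17, of Eif4e2 from -2.97 to 1.81 and of Eif4g3 from -0.24 to 6.08. The cause of these changes was not tested. No paired analysis was possible because no result comes from a test and the shared cell numbers only name picked cells. Tnmd-/- cells 3 and 7 hold 3538 and 5352 counts of the members, which limits the precision of their values.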
